A study of Homo sapiens with 2 samples.

Results

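The genes described here are TMPRSS2, a membrane-anchored serine protease of the prostate whose androgen-driven promoter is often joined to an ETS gene in prostate cancer, and 9 transcription factors of the ETS family: ERG, FLI1, ETV1, ETV4, ETV5, ETS2, ELF3, EHF and SPDEF. All probe sets whose single platform symbol was one of these 10 genes were taken, which gave 43 of the 54675 probe sets on the array. They stand for 10 of the 19775 genes named by a single symbol. C4-2B is a prostate cancer line, derived from LNCaP, that the antiandrogen enzalutamide inhibits, and C4-2B-MDVR is its enzalutamide-resistant derivative, obtained by keeping C4-2B under the drug for a long time, as the design text states. Both lines were grown in the same medium with serum and neither was treated before total RNA was taken. Each line was measured on 1 Affymetrix array, so there is no spread between replicates and no p-value can be given, and the resistant line is a single derivative of its parent. The labels of the resistant sample disagree, since its description speaks of TaxR, a line resistant to docetaxel, while title, source and cell line say C4-2B-MDVR. Samples were grouped by the cell line entry, and every difference is the log2 intensity of the array labelled C4-2B-MDVR minus that of the array labelled C4-2B.

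ETS factors share a DNA-binding domain that reads a short GGAA core. In the prostate ERG, ETV1, ETV4 and ETV5 are known as oncogenes that become active through gene fusion, while ELF3, EHF and SPDEF belong to the normal program of epithelial cells, and ERG and FLI1 are normally used by endothelial and blood cells. LNCaP, the line from which C4-2B descends, is known to carry a rearranged ETV1 gene and no TMPRSS2 fusion to ERG.

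The data gave 3 patterns. ELF3 was higher in C4-2B-MDVR in each of its 3 probe sets. SPDEF and EHF were lower in most of theirs, and TMPRSS2 was slightly lower in its 3 measurable probe sets. The fusion-type factors ERG, FLI1, ETV1, ETV4 and ETV5 read near or under the detection floor on both arrays. The floor was each array's median intensity, 41.9 in the sensitive and 43.5 in the resistant line, as no detection calls were at hand. A probe set counted as above the floor when its brighter array reached that array's floor, which is called detected below, and 23 of the 43 did so, all of them on both arrays. Of these 23, 1 was 2-fold or more higher (4.35%, against 2.75% of the 24087 named probe sets above the floor) and 1 was 2-fold or more lower (4.35% against 4.06%). The members' share past 2-fold was therefore near that of all probe sets. At 1.5-fold 7 of the 23 passed, 3 higher and 4 lower (30.4% against a background of 18.5%), and these 7 belonged to ELF3, SPDEF and EHF. The median difference of the 23 was 0.03, as was that of all named probe sets above the floor.

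The promoters of ELF3, SPDEF and EHF are shown because these 3 epithelial factors hold every detected member probe set beyond 1.5-fold. Each run covers 250 bases before to 50 after a RefSeq transcription start in GRCh38.p14, 5′ to 3′ on the gene's strand, with GGAA or its reverse complement TTCC in capitals. The windows are chr1:202010337-202010636 on the plus strand for ELF3, chr6:34556280-34556579 on the minus strand for SPDEF and chr11:34624007-34624306 on the plus strand for EHF, where the upstream one of 2 starts was taken.
ELF3: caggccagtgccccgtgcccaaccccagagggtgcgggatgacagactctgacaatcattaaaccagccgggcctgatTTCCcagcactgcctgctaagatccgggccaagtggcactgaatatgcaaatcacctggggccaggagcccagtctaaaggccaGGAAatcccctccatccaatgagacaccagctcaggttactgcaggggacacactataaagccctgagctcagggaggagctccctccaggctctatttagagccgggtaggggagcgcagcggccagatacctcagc
SPDEF: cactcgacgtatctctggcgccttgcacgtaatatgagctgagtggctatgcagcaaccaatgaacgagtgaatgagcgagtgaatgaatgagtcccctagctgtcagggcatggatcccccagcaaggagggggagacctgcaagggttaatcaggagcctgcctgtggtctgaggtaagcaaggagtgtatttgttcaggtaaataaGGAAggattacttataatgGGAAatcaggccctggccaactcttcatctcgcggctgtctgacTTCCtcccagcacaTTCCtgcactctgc
EHF: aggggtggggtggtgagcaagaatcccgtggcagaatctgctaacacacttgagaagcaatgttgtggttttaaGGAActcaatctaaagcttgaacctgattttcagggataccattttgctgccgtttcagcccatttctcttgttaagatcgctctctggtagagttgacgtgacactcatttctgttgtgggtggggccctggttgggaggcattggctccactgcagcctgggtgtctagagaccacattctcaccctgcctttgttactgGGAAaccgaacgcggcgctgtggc
GGAA was searched on both strands and occurred 2 times in the ELF3 window, 4 times in SPDEF and 2 times in EHF, while the window of the other EHF start held 0. Of 35116 RefSeq promoter windows of the same length 95.5% held at least 1 such match, with a median of 3, so these counts are ordinary. The longer core CCGGAA, which contains GGAA, was in none of the 3 windows and in 17.2% of all windows. An androgen receptor half-site, AGAACA or its complement TGTTCT, was likewise in none of the 3 and in 14.8% of all windows. A TATAAA motif began at position -34 in ELF3, and 11.5% of all windows held one on either strand. These are matches of letters, and binding was not measured.

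**Figure D1:**
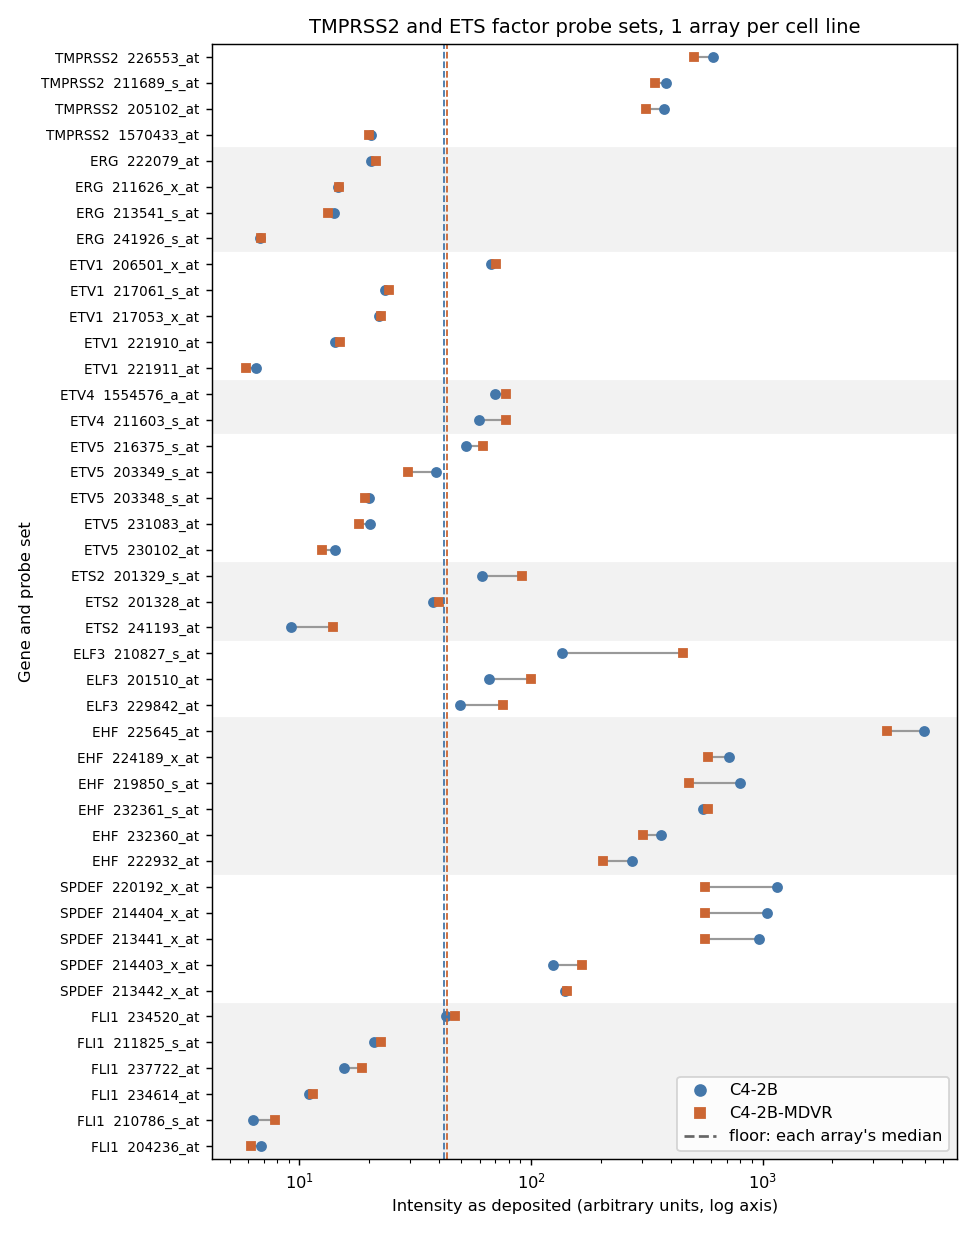
Intensity of each of the 43 probe sets on the C4-2B array (blue circles) and the C4-2B-MDVR array (orange squares), on a log axis, grouped by gene, with each array's floor as a dashed line. The ELF3 squares lie to the right of their circles, 3 SPDEF squares lie to the left of theirs, and all 4 ERG probe sets lie left of the floor.

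ELF3, an epithelial ETS factor that inflammatory signals can induce, had the largest difference among the detected member probe sets. Probe set 210827_s_at had an intensity of 136 in the sensitive line and 452 in the resistant line, which is 3.31-fold or 1.73 on the log2 scale. Among all named probe sets above the floor 0.967% were this high or higher. In bulk RNA a larger share of cells that express a gene and more RNA per cell cannot be told apart. The other 2 probe sets read 65.6 and 99.4 (201510_at) and 49.2 and 75.3 (229842_at), differences of 0.60 and 0.61. All 3 were thus higher in C4-2B-MDVR, but 2 of them by about 1.5-fold. Those 2 were also dim, with floors of 41.9 in the sensitive and 43.5 in the resistant line. The gap between the lowest and the highest of the 3 differences was 1.13. For the 1666 genes with 3 probe sets above the floor the median gap was 0.42, and 6.90% had a gap of at least this size, so the size of the ELF3 difference depended on the probe set more than for most such genes.

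SPDEF, a prostate-derived factor of luminal and secretory cells, was lower in 3 of its 5 probe sets. Probe set 220192_x_at read 1150 in the sensitive line and 565 in the resistant one (log2 difference -1.02), which is 2.03-fold lower and just past the 2-fold threshold. With quantile normalization it was -0.96 and with loess -0.99, so this call ended under either scaling. Probe set 214404_x_at went from 1046 to 563 (-0.89), and 213441_x_at from 967 to 566 (-0.77). The remaining pair did not share the direction: 214403_x_at read 124 and 166 (0.42), and 213442_x_at read 140 and 143 (0.03, and -0.03 with median centring or -0.0075 with loess). All 5 names end in _x_at, Affymetrix's mark for probes that may also match other sequences. The gap of 1.44 between the SPDEF probe sets was above the median gap of 0.70 for the 263 genes with 5 probe sets above the floor, and 7.98% of those genes had one as large.

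EHF, the closest relative of ELF3 among the members and a factor of glandular epithelium, was measurable in all 6 of its probe sets. Probe set 225645_at read 4950 and 3440 in the sensitive and resistant line (log2 difference -0.53). The lowest difference was -0.74 in 219850_s_at, where the intensity went from 800.3 to 481, or 1.67-fold lower. Of the other 4, 3 were below 0 (222932_at at -0.41, 224189_x_at at -0.31 and 232360_at at -0.27) and 232361_s_at was at 0.08, with intensities of 552 and 583. EHF therefore stayed within 2-fold throughout, with 5 of 6 probe sets lower in C4-2B-MDVR and a median of -0.36. The direction of each EHF and ELF3 probe set was the same under median centring, quantile normalization and loess.

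**Figure D2:**
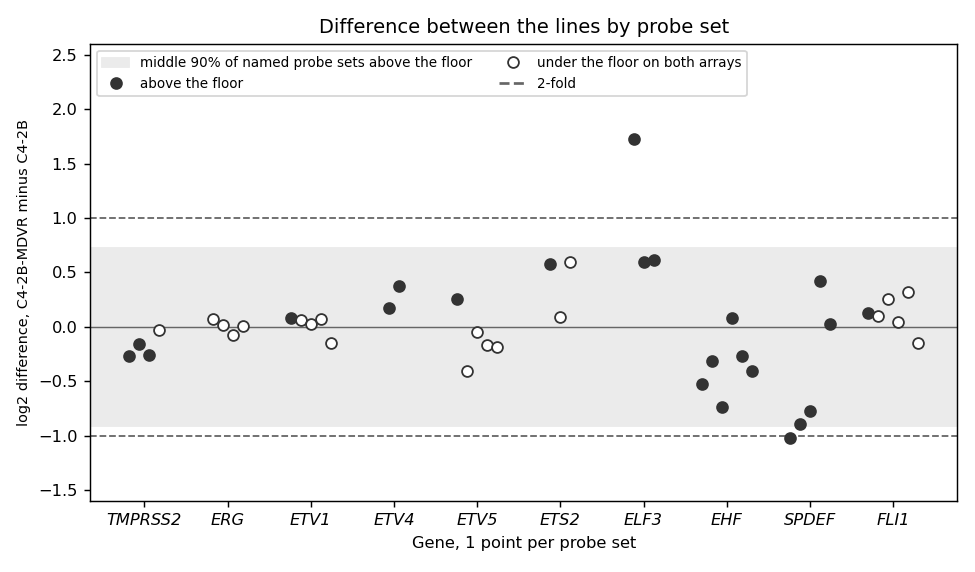
Log2 difference, C4-2B-MDVR minus C4-2B, of each probe set by gene; filled points were above the floor and open points under it on both arrays. The grey band spans the middle 90% of named probe sets above the floor (-0.91 to 0.73) and dashed lines mark 2-fold; 1 ELF3 and 1 SPDEF point lie beyond the lines.

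TMPRSS2, whose promoter responds to androgen, differed little. Its probe set 226553_at read 610.2 in the sensitive and 506 in the resistant line (log2 difference -0.27, 17.1% lower), 205102_at read 373 and 313 (-0.26), and 211689_s_at read 384 and 343 (-0.16). The 3 differences lay within 0.11 of each other, so the probe sets were far closer than those of ELF3 or SPDEF. Among named probe sets above the floor 23.8% were as low as 226553_at or lower. The last probe set, 1570433_at, was under the floor with readings of 20.3 and 19.9.

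Other androgen-induced genes are set beside TMPRSS2, since it belongs to that class. Among the 11 detected genes of that list, 8 passed 2-fold downward and 0 upward, while 3.5% of the 13437 named genes above the floor did so downward and 3.17% upward. The list median was -1.88 and that of all genes 0.04. KLK3, which encodes prostate-specific antigen, was at -5.61, ELL2, an elongation factor, at -3.70, SLC45A3 at -3.42, the transporter ABCC4 at -2.74, KLK2 at -2.10, the co-chaperone FKBP5 at -1.88, PMEPA1 at -1.76 and ZBTB10 at -1.32. The detected probe sets ran from -6.24 to -0.35 for KLK3, from -2.37 to -0.88 for KLK2 and from -1.67 to 0.12 for ZBTB10. The 3 genes within 2-fold were TPD52 (-0.82), NDRG1 (0.12) and the kallikrein KLK4 (0.43), and TMPRSS2 was within 2-fold as well. For TPD52 this holds for the probe set that stood for it, while its 5 detected probe sets ran from -2.07 to -0.82. The low KLK genes were known from an earlier reading of these arrays, so the list is a description.

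The next list held other genes known to lend their promoter to ETS genes or to lie at the rearranged ETV1 of LNCaP. Of its 10 detected genes, 0 passed 2-fold upward (3.17% of all genes did) and 2 downward (20% against 3.5%). These were SLC45A3, whose intensity went from 1091 to 102 (10.7-fold lower), and KLK2, which went from 1263 to 295 (4.28-fold lower). HERPUD1, a protein of the endoplasmic reticulum, was at -0.69, TTC6 at 0.38, HNRNPA2B1 at 0.36 and FOXP1 at -0.29. Their detected probe sets ran from -0.69 to -0.06, -0.21 to 0.38, 0.16 to 0.36 and -0.38 to 0.20, in that order. The 5′ partners of ETS fusions thus differed by unequal amounts, with TMPRSS2 at -0.27 and SLC45A3 at -3.42.

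Membrane-anchored serine proteases related to TMPRSS2, with their inhibitors, were centred on 0.03, the median of 13 detected genes. PRSS8, the protease prostasin, was the 1 gene past 2-fold, with an intensity of 171 in the sensitive and 361 in the resistant line (1.08). Upward, 1 gene of 13 is 7.69%, against 3.17% of all genes, and 0 passed downward, against 3.5%. SPINT1, an inhibitor of such proteases, was at 0.71, TMPRSS4 at least 1.12-fold lower (under the floor in the resistant line), TMPRSS13 at 0.47 and the matriptase gene ST14 at 0.18. TMPRSS4 and TMPRSS13 read 66.2 or less on both arrays, close to the floor.

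ERG, the ETS gene most often joined to TMPRSS2, was under the floor in all 4 probe sets on both arrays. Probe set 222079_at read 20.4 in the sensitive and 21.5 in the resistant line, 211626_x_at read 14.6 and 14.7, 213541_s_at read 14.0 and 13.3, and 241926_s_at read 6.75 and 6.79. No change in ERG could be measured at this signal. FLI1, the nearest relative of ERG, was under the floor in 5 of 6 probe sets, and 234520_at, with 43.0 and 46.9, lay barely above it (0.13). The remaining FLI1 readings ran from 6.18 to 22.5 over both arrays. Of 8 endothelial markers 5 were under the floor on both arrays (CDH5, KDR, TEK, TIE1 and ESAM) and 3 were above it (PECAM1 at 58.9 and 67.9, VWF at 80.4 and 73.6, CLDN5 at 65.0 and 66.7). Of 7 blood markers PTPRC, CD14 and LYZ were under the floor on both arrays, and 4 were above it (CD3E at 69.9 and 73.6, CD34 at 57.6 and 69.6, GP9 at 144 and 131, ITGA2B at 95.1 and 123). The summed intensity of the 8 endothelial markers was 301 in the sensitive and 310 in the resistant line, and that of 7 blood markers 411 and 444. Epithelial genes such as KRT18 (4337 and 4038) and EPCAM (2565 and 2207), and the prostate factor HOXB13 (1879 and 1950), read well above the floor in both lines.

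Genes linked with ERG in prostate cancer were not uniform. Among 13 detected genes, 2 passed 2-fold upward (15.4% against 3.17% of all genes) and 1 downward (7.69% against 3.5%). The median was 0.36 (0.04 for all genes). SOX9, a developmental transcription factor, read 34.0, under the floor, in the sensitive and 233 in the resistant line, at least 5.56-fold higher when the floor stands for C4-2B. LEF1, a factor of the Wnt pathway, went from 122 to 515 (2.07), while CRISP3, a secreted protein, went from 92.1 to 22.4, at least 2.12-fold lower. HLA-DMB was at 0.90, KHDRBS3 at 0.65, KCNS3 at 0.56 and ARHGDIB at 0.48. TDRD1 and PLA1A, which are known to be high in tumours with ERG rearrangement, were under the floor on both arrays. ERG itself was under the floor in both lines, as given above.

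**Figure D3:**
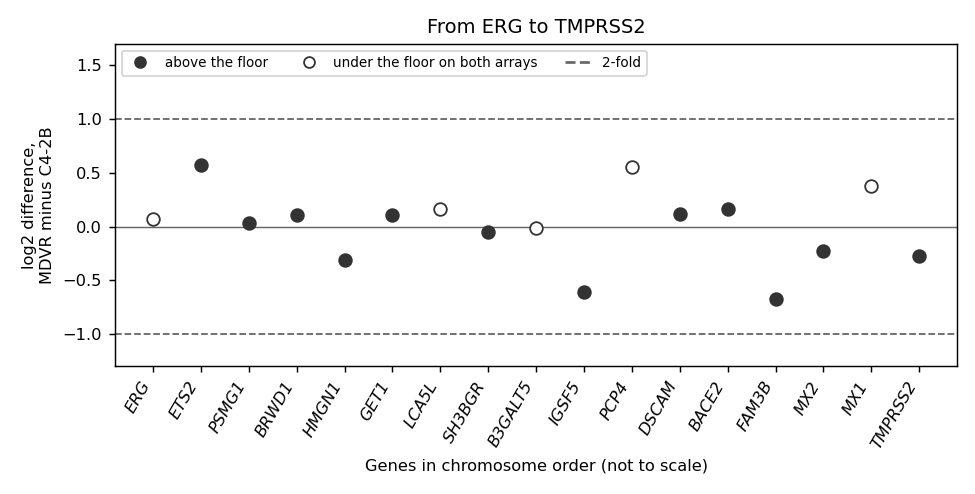
Log2 difference of ERG, TMPRSS2 and the genes between them in chromosome order (1 probe set per gene, the one with the highest mean; spacing not to scale); filled points were above the floor. All points lie inside the dashed 2-fold lines, and among filled ones ETS2 is highest at 0.57; the FAM3B point, measured at -0.68, rests on a C4-2B-MDVR value under the floor.

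The interval between ERG and TMPRSS2 on chromosome 21 is lost in one kind of fusion of these genes, and ETS2 lies in it. By RefSeq gene order it holds 16 protein-coding genes, of which 15 had a probe set and 11 were above the floor. Of these 11, 0 passed 2-fold in either direction. Over all genes 3.17% did so upward and 3.5% downward, so a count of 0 among 11 genes is near that share. Of the 11, 6 were above 0 and 5 below, and the median was 0.03. PSMG1, a proteasome assembly factor, read 1674 and 1712 (0.03), GET1 read 1536 and 1656 (0.11), and HMGN1, a nucleosome-binding protein, 4491 and 3631 (-0.31). IGSF5 went from 96.2 to 63.0 (-0.61), and FAM3B from 61.4 to 38.4, under the floor and so at least 1.41-fold lower. BRWD1 was at 0.11, but its 6 detected probe sets reached down to -0.96. When all probe sets of a gene were averaged, 8 genes of the interval were detected and their median was -0.24, against 0.02 for all genes, so a common shift depended on how probe sets were combined. PSMG1 and GET1 were picked for display after their values were seen.

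ETS2, which acts downstream of growth factor signals, had 1 of 3 probe sets above the floor. Probe set 201329_s_at read 61.6 in the sensitive and 91.8 in the resistant line (log2 difference 0.57), and 7.83% of named probe sets above the floor were this high or higher. Its probe set 201328_at, with 37.8 and 40.1, and 241193_at, with 9.19 and 13.9, were under the floor, where differences have no order. ETS2 was thus higher by 1.49-fold in 1 dim probe set and could not be followed in the others.

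ETV1, ETV4 and ETV5 form the PEA3 group, whose genes ERK signalling switches on in many cells. ETV1 read 66.9 and 70.6 in 206501_x_at (0.08), and its other 4 probe sets were under the floor, from 5.87 to 24.4 over both arrays. For ETV4 1554576_a_at read 69.6 and 78.3 (0.17) and 211603_s_at read 59.8 and 77.7 (0.38). In ETV5 216375_s_at read 52.2 and 62.3 (0.25), and the other 4 were under the floor, of which 203349_s_at read 38.8 and 29.3. The 4 PEA3 probe sets above the floor were all slightly higher in C4-2B-MDVR and all within 1.5-fold, at intensities close to the floor.

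Genes of the ERK output that ETV4 and ETV5 belong to were mostly within 2-fold, with some lower members. Among 13 detected genes, 5 passed 2-fold downward (38.5% against 3.5% of all genes) and 0 upward, and the median was -0.21. PHLDA1 went from 1143 to 111 in intensity (-3.37), and 2 other probe sets detected on both arrays were at -1.53 and -0.29. A further 2 PHLDA1 probe sets fell under the floor of the resistant line and were at least 12.4-fold and 3.19-fold lower. DUSP4, a phosphatase that shuts off MAP kinases, went from 353 to 66.7 (-2.40). Its other 2 probe sets fell under the floor of the resistant line and were at least 2.52-fold and 2.06-fold lower. The feedback inhibitors SPRY1 (151 to 42.9, at least 3.47-fold lower) and SPRED2 (260 to 125, -1.05) were also lower, but SPRED2 in another probe set was at -0.07 and SPRY1 at -0.36. SPRY2 went from 69.4 to 21.1, which the floor turns into at least 1.60-fold, so 4 of the 5 passed 2-fold with such values set to the floor. The rest of the list was within 2-fold, with FOSL1 at least 1.09-fold higher, SPRED3 at 0.30, EPHA2 at -0.26, SPRED1 at 0.24 and SPRY4 at -0.04, and DUSP6 and EGR1 were under the floor on both arrays.

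Proteins that repress, degrade or phosphorylate ETS factors were centred on 0.21, the median of 13 detected genes. Of these, 0 passed 2-fold downward (3.5% of all genes did) and 1 upward (7.69% against 3.17%). That gene was TRIB2, a pseudokinase that acts as a scaffold for ubiquitin ligases. It went from 70.1 to 269 (1.94), and its other probe set gave 1.83. The ubiquitin ligase gene COP1 was at 0.28, its partner DET1 at 0.38, the deubiquitinase USP9X at 0.39 and MAPK3, which encodes ERK1, at 0.46.

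Genes reported as targets of ELF3, EHF or SPDEF went in both directions. Among 7 detected genes, 2 passed 2-fold upward (28.6% against 3.17% of all genes) and 2 downward (28.6% against 3.5%). The list median was -0.18. LCN2, the lipocalin that ELF3 is reported to induce, went from 76.9 to 335 (2.12), and SERPINB5, the serpin maspin, from 33.1 to 191, at least 4.57-fold higher. AGR2, a secretory pathway protein reported downstream of SPDEF, went from 717 to 123 (-2.55), and SNAI2, a repressor of epithelial genes, from 129 to 14.8, at least 2.97-fold lower. CDH1 (-0.31), the tight junction gene CLDN7 (-0.18) and TFF3 (-0.06) were within 2-fold. TGFBR2, NOS2, PTGS2, SPRR1B and FOXA3 were under the floor on both arrays. SERPINB5 is reported as induced and SNAI2 as repressed by SPDEF. SPDEF itself was lower in 3 of its 5 probe sets. A link between SPDEF and AGR2, SERPINB5 or SNAI2 was not tested, nor was one between ELF3 and LCN2.

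**Figure D4:**
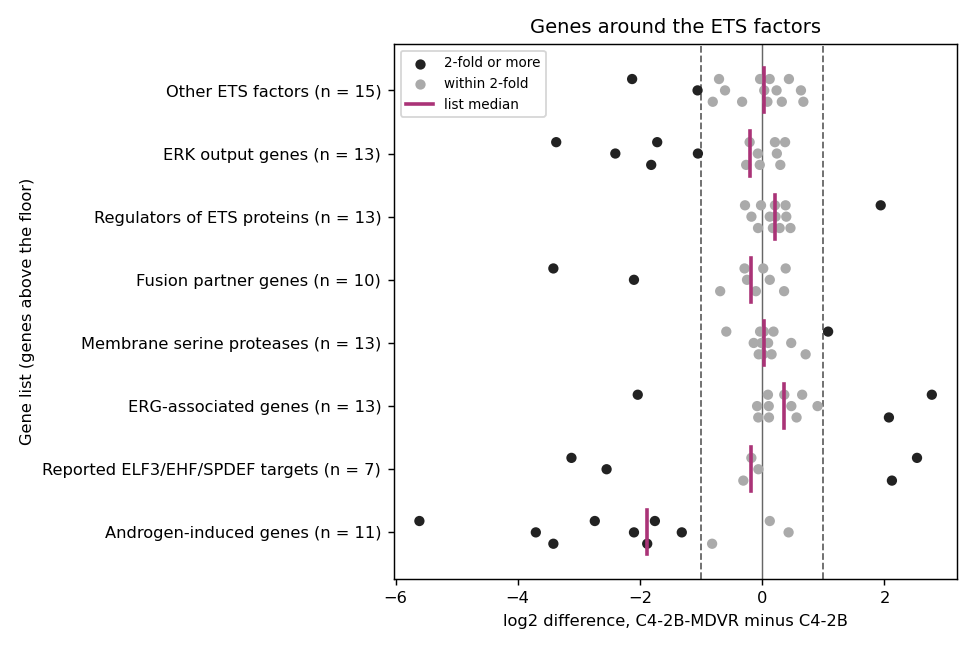
Log2 difference of the genes above the floor in 8 lists (1 point per gene), with 2-fold or more in black, the list median in purple and 2-fold as dashed lines. The androgen-induced list lies lowest, with a median of -1.88, and 5 of 13 ERK output genes lie left of the 2-fold line.

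The rest of the ETS family held 15 detected genes, and their median was 0.03. Of these, 2 passed 2-fold downward (13.3% against 3.5% of all genes) and 0 upward (3.17% of all genes did). ELF5, which lies next to EHF on chromosome 11, went from 274 in C4-2B to 62.6 in C4-2B-MDVR (-2.13), and its other probe set from 65.9 to 34.4, which is under the floor and so at least 1.52-fold lower. ELK4, a partner of serum response factor, went from 590 to 283 (-1.06, and within 2-fold with quantile normalization), and 3 other probe sets detected on both arrays ran from -1.36 to -1.15. ELK4 lies next to SLC45A3 on chromosome 1 and is known to be transcribed together with it in a read-through RNA. SLC45A3 was 10.7-fold lower in the same array, and how far the ELK4 probe sets detect such an RNA was not tested. FEV was at -0.81, ETV2 at least 1.34-fold lower (under the floor in the resistant line), ELK3 at 0.67 and ELF4 at 0.63. GABPA, named after its values were seen, was at 0.32 in one probe set, while the other fell under the floor of the resistant line and was at least 2.06-fold lower. ETS1, the chromosomal neighbour of FLI1, read 64.5 and 63.0 (-0.04). SPI1, SPIB and SPIC, factors of blood cells, were under the floor on both arrays. By the probe set that stood for each gene, 4 of 23 detected ETS genes passed 2-fold over the whole family. ELF3 was higher (4.35% against 3.17% of all genes) and SPDEF, ELK4 and ELF5 were lower in C4-2B-MDVR (13.0% against 3.5%). The count was 3 of 23 with loess, 2 of 23 with quantile normalization and 1 of 17 when all probe sets of a gene were averaged. Averaging gave 0 higher and 1 lower (5.88%), beside 293 and 302 of the 11772 named genes then above the floor. Over all genes 412 of 13442 were higher and 477 lower with loess, and 445 and 425 of 13443 with quantile normalization.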

How the data were processed

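Per the labels' protocols, RNA of each line was amplified, fragmented and biotinylated for 1 Affymetrix array. The labels name a whole-transcript kit, while the probe sets are those of an expression array designed for the 3′ end of transcripts, and what this does to differences between probe sets of one gene was not tested. The authors deposited a linear intensity for every probe set, and how they corrected, normalized and summarized it is not given in the sources used here. Differences were taken between log2 of these values. Gene symbols came from the 2016 annotation of the platform, and those of all 43 member probe sets matched RefSeq by Entrez identifier. In gene lists the probe set with the highest mean stood for its gene. A bound ("at least") sets the brighter array against the dimmer array's floor. A difference of 2-fold or more was counted, with no test, since each line has 1 array and their number limits the precision.

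Members and lists were chosen with earlier results of these data known. Named were all member probe sets, the list genes past 2-fold and up to 4 more per list with the largest differences; other genes named were chosen after their values were seen. With 2 arrays no genes can be named as most like a member. Alternatives were other scalings (median centring, quantile, loess with a span of 0.3), floors, thresholds and averaging over all probe sets of a gene. The steps were tested on simulated data, with planted changes well past 2-fold in probe sets that lay clear of the floor. Calls near the threshold or near the floor were not tested in this way. Python 3.11.15, numpy 2.4.6, pandas 2.3.3, statsmodels 0.14.6 and matplotlib 3.10.9 were used.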

Additional observations from a re-analysis of the deposited data

How the results depend on the processing

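The count of member probe sets 2-fold or more higher was 1, and of those lower 1, with median centring, with low values set to the floor and with floors at the 25th or 75th percentile or none. The lower count was 0 with quantile normalization, loess or a 3-fold threshold, since SPDEF 220192_x_at was at -0.96 and -0.99 under those scalings. At 1.5-fold 3 were higher and 4 lower. Over 23 probe sets and 4 alternatives 90 of 92 differences stayed on their side of 2-fold, and 1 probe set, SPDEF 213442_x_at, changed sign. Setting low values to the floor, 1 of the 4, could change none, because all 23 were above the floor on both arrays. Median centring moved all of them by the same small amount. Only quantile normalization and loess could move probe sets by unequal amounts. The genes between ERG and TMPRSS2 held 0 past 2-fold in each alternative run, a count near the share of all genes for so short a list. The lists held 24 genes past 2-fold, and 21 to 24 in the alternatives. Of the 24, 8 were androgen-induced genes, and over all named genes above the floor 3.17% passed upward and 3.5% downward. The lists were chosen with earlier results known, so this count is a description. When all probe sets of a gene were averaged, 5 members were above the floor and 0 were past 2-fold. Signal near the background limits ERG, FLI1, ETV1, ETV4, ETV5, ETS2 and 2 of the 3 ELF3 probe sets. No paired analysis was possible because each line has 1 array.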
